A study of Mus musculus with 29 samples.

Results

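Lungs of Klf15-knockout mice given saline were compared at 8 h and 4 h after treatment, using the 4 arrays titled for the 8 h group and the 3 titled for the 4 h group, 7 of the 29 arrays in all. Klf15 -/- (KO) mice lack the transcription factor KLF15, and neither of these groups received drug, so the comparison holds genotype and treatment fixed and varies the time. Tested beside them were KO lungs given dexamethasone, a synthetic glucocorticoid, at 2.5 mg/kg (4 arrays at 8 h and 4 at 4 h), wild-type (WT) lungs given saline (3 arrays at 8 h and 4 at 4 h) and WT lungs given dexamethasone (4 arrays at 4 h). All mice were C57BL/6 and 6 to 8 weeks old, and the labels tie the deletion to no cell type. Each array is labelled as a biological replicate and measured total RNA of whole lung. The labels give neither the hour of day of injection or collection nor an untreated group, so hours after injection, hour of day and handling cannot be told apart. In whole lung, fewer cells of a type and less RNA per cell cannot be told apart either.

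Nearly every cell keeps a daily rhythm through a loop of transcription factors. CLOCK and BMAL1 (the product of Arntl) drive the Per and Cry genes, whose proteins return to block them, while the REV-ERB and ROR nuclear receptors repress and activate Arntl in a second loop. Adrenal glucocorticoids, which are secreted with a daily rhythm and on stress, bind the receptor encoded by Nr3c1 and switch on genes such as Per1, Tsc22d3 and Klf15 itself. KLF15 is known to act with that receptor on genes of amino acid breakdown.

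The recognised letters for these factors were looked for in RefSeq promoter windows of build GRCm38.p6, each of 300 bases around a gene's start. Of the 19 clock, clock output and glucocorticoid-induced genes that changed between 8 h and 4 h, 17 had a window, and Angptl4 and Per2 had none. The E-box CACGTG, bound by CLOCK and BMAL1, was in a window of 5 of the 17 (Cry1, Per1, Pfkfb3, Ppp1r3c and Tspan4), and 8.09% of all 27025 genes had one. Some genes had several windows. Counted by window, 5 of 25 held an E-box, against 7.15% of all 32851 windows. The ROR and REV-ERB element TAGGTCA was found for Arntl and Glul, against 2.97% of all genes. The glucocorticoid response element was found for Fam107a (0.481% of all genes), and the cyclic AMP element TGACGTCA for Hlf (2.03%). The D-box (TTATGTAA or TTACGTAA, 1.23% of all genes) and the heat shock element (0.662%) were in none of the 17. All motifs were searched on both strands, 0 matches of different motifs overlapped in these windows, and a match of letters is a description, not a bound site. The 4 windows below are shown because they hold the letters for 3 of these kinds of factor beside genes whose values open the results, with the motif in capitals. Those of Cry1 (chr10:85185005-85185304, minus strand) and Per1 (chr11:69098699-69098998, plus strand) hold an E-box, that of Arntl (chr7:113207261-113207560, plus strand) the ROR element and that of Fam107a (chr14:8309730-8310029, minus strand) the glucocorticoid response element. Per1, Arntl and Fam107a each also had a window without the motif shown here.
Cry1: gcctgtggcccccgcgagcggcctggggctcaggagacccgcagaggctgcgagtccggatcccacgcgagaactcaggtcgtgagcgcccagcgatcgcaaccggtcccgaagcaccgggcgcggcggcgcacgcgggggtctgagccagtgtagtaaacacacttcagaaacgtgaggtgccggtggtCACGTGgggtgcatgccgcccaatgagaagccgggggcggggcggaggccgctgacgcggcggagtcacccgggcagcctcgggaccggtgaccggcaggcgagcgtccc
Per1: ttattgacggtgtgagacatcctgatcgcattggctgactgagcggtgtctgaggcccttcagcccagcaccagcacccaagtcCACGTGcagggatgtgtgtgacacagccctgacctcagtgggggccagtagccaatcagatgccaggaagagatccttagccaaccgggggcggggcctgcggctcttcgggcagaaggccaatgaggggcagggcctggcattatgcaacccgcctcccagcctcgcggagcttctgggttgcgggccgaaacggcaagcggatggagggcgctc
Arntl: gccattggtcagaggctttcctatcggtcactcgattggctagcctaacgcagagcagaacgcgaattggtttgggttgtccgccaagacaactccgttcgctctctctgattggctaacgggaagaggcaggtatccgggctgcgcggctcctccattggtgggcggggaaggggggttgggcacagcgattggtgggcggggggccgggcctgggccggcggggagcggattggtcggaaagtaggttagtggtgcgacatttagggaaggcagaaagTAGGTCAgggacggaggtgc
Fam107a: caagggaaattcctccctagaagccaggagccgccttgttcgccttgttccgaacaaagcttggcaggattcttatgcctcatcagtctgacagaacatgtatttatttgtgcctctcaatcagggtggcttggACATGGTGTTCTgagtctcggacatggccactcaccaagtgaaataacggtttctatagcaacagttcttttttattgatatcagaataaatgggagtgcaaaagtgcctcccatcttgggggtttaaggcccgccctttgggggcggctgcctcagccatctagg

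Levels are log2 processed signals minus the 75th percentile of the array, so 0 is the array's 75th percentile and each unit is a factor of 2. They are set between arrays for 1 gene and never between genes. Of 15350 genes tested with limma across all 29 arrays, 157 (1.02%) passed a Benjamini-Hochberg adjusted p of 0.05 between 8 h and 4 h in KO saline lung, 103 higher (0.671%) and 54 lower (0.352%) at 8 h. Changes were moderate: 10 of the rises and 6 of the falls reached 2-fold. In 1878 genes (12.2%) the 4 arrays at 8 h lay wholly above or below the 3 at 4 h.

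Klf15 itself checked the labels. It lay at -0.63, -0.50, 0.08 and 0.49 in KO lungs at 8 h and at -0.87, -0.88 and -0.27 in KO lungs at 4 h, against 2.69 to 3.02 in WT saline lungs at 8 h and 1.95 to 2.57 at 4 h. All 7 KO arrays were below all 7 WT arrays, although the probe stayed well above background on every KO array. The sources used here do not say where the probe lies relative to the deleted sequence. The residual Klf15 signal did not pass the test between 8 h and 4 h (log2 difference 0.53, SE 0.23, adjusted p = 0.376), nor did the glucocorticoid receptor gene Nr3c1 (0.14, SE 0.091, adjusted p = 0.638). A dimmer kept probe of Klf15 differed by 0.66. In a limma fit over single probes its unadjusted p was 0.00098, against 0.028 for the probe used.

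Core clock genes had the largest share of calls among the 40 gene lists. Of 17 tested, 5 rose and 2 fell at 8 h, against 1.02% of all genes called, and the median difference of the list was 0.14 against -0.03 over all genes. The period genes Per1 and Per2, both cryptochromes and Rora were higher, while Arntl and the REV-ERBα gene Nr1d1 were lower. None of these calls held in a fit on the 7 KO saline arrays alone.

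Cry1, the cryptochrome repressor of CLOCK and BMAL1 whose E-box is printed above, was at -1.68, -1.87, -1.92 and -1.72 at 8 h, against -3.17, -2.84 and -2.81 at 4 h. No array overlapped, and it rose by 1.14 (2.21-fold, SE 0.12, adjusted p = 9.4e-06). Its partner Per2, a period repressor, was at 1.29, 1.06, 1.32 and 1.32 at 8 h, against -0.08, 0.18 and 0.30 at 4 h. Per2 rose by 1.11 (2.16-fold, SE 0.13, adjusted p = 3.7e-05). Both calls were lost when the dimmest probe of the gene was taken in place of the brightest, with differences of 0.56 for Cry1 and 0.50 for Per2.

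Per1, the period gene that glucocorticoids induce directly, was at 2.80, 2.77, 2.71 and 2.41 at 8 h, against 1.33, 1.83 and 2.17 at 4 h. The 3 arrays at 4 h were spread over a wider range than those at 8 h, but none reached them. It rose by 0.90 (SE 0.19, adjusted p = 0.0206), and the call was lost in 9 of 21 alternative settings, among them the slide as a fixed block (adjusted p = 0.052).

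Cry2, the second cryptochrome, rose by 0.43 (SE 0.10, adjusted p = 0.0421) and lost its call in 15 of 21 settings (adjusted p = 0.124 with the slide as a fixed block). Rora, encoding RORα, was at 1.14, 1.16, 0.94 and 1.13 at 8 h, against 0.74, 0.77 and 0.65 at 4 h, and rose by 0.37 (SE 0.084, adjusted p = 0.0287). That call was lost in 11 of 21 settings, with an adjusted p of 0.092 under the fixed slide block.

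Arntl moved the other way from the Per and Cry genes that its product drives. It was at -2.67, -2.68, -2.79 and -2.49 at 8 h, against -1.68, -1.70 and -1.96 at 4 h, and fell by 0.88 (0.545 of its 4 h level, SE 0.16, adjusted p = 0.0065). All 4 arrays at 8 h lay below all 3 at 4 h. The call was lost in 3 of 21 settings, among them the fit without replicate 41 of the 4 h group.

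Nr1d1, whose product represses Arntl, was at 1.42, 1.16, 0.99 and 0.67 at 8 h, against 2.11, 2.10 and 1.83 at 4 h. It fell by 0.95 (SE 0.23, adjusted p = 0.0461), with the groups apart, and lost its call in 13 of 21 settings. Fixing the slide as a block gave -0.94 with an adjusted p of 0.082.

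The other 10 core clock genes did not pass. Per3 lay at -2.34 to -2.46 at 8 h and -3.01 to -2.86 at 4 h, a difference of 0.52 with an adjusted p of 0.0552. Clock was at -0.45, -0.27, -0.37 and -0.15, against -0.06, 0.02 and 0.11, a difference of -0.33 (adjusted p = 0.110). Nr1d2, the second REV-ERB gene, differed by 0.10, and the repressor gene Ciart by 0.14.

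**Figure D1:**
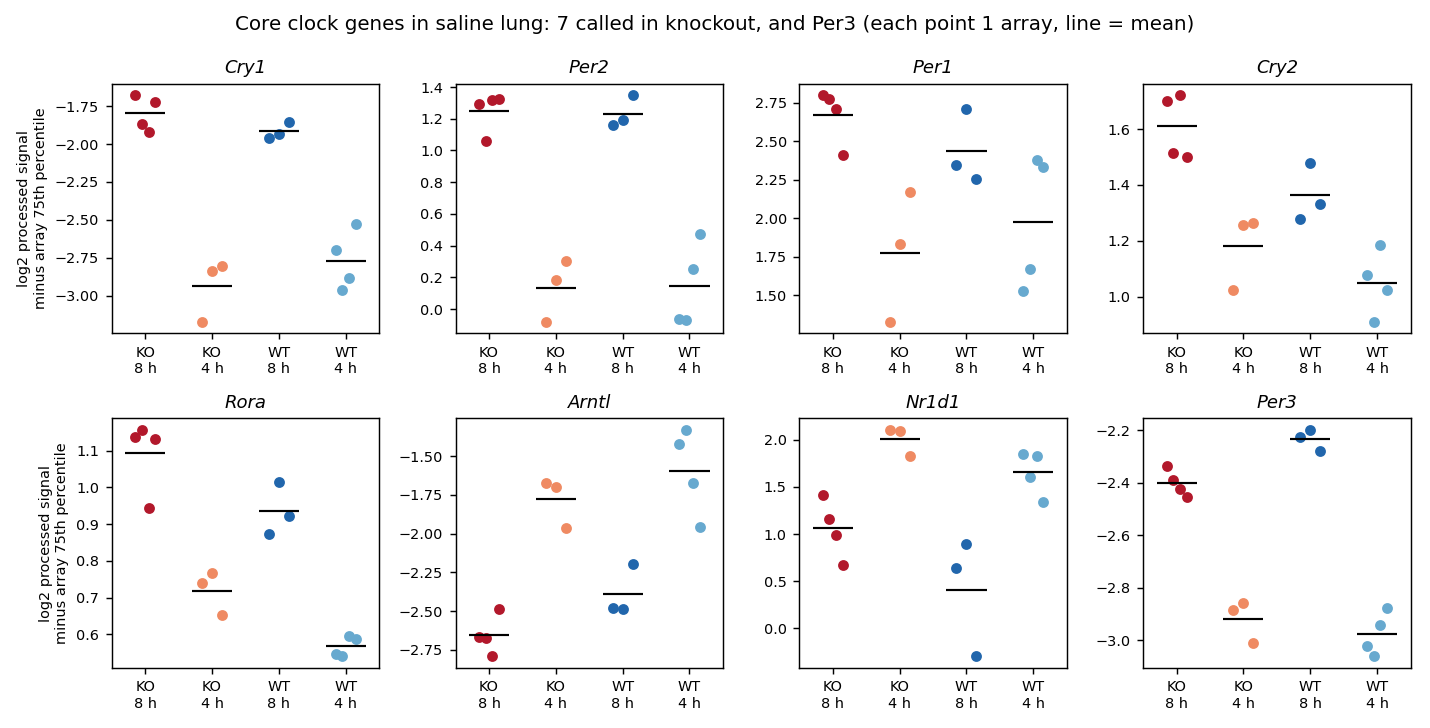
Log2 level relative to the array's 75th percentile (vertical axis, its range set per gene) for the 7 core clock genes called in KO saline lung and for Per3, which was not called, with 1 point per array and the group mean as a line, for KO at 8 h and 4 h and WT at 8 h and 4 h. Cry1, Per2, Per1, Cry2, Rora and Per3 are higher and Arntl and Nr1d1 lower at 8 h, with no overlap between the 2 KO groups.

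Clock output genes are those driven by the clock. Of 23 clock output genes tested, 6 rose and 1 fell at 8 h, against 0.671% of all genes higher and 0.352% lower. Dbp, a PAR-bZIP factor and the classic direct target of BMAL1, differed by -0.09 (adjusted p = 0.865): its levels of 4.88 to 5.45 at 8 h surrounded those of 5.24 to 5.32 at 4 h. Tef, of the same family, lay at 3.88 to 4.09 at 8 h and 3.48 to 3.65 at 4 h, a difference of 0.37 that missed the threshold (adjusted p = 0.0552).

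Hlf, the third factor of that family, was at 0.83, 0.88, 0.75 and 0.83 at 8 h, against 0.34, 0.29 and 0.33 at 4 h. It rose by 0.50 (SE 0.10, adjusted p = 0.0125). Usp2, a deubiquitinase with a strong daily rhythm in many tissues, averaged -0.21 ± 0.26 at 8 h (SD, n = 4), against -1.08 ± 0.08 at 4 h (SD, n = 3). Its rise of 0.87 had an adjusted p of 0.000617, and no arrays overlapped. With the dimmest probe the difference was 0.51 and the call was lost (adjusted p = 0.241).

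Mthfd1l, an enzyme of mitochondrial one-carbon metabolism, rose by 0.73 (adjusted p = 0.0022), the tetraspanin gene Tspan4 by 0.59 (adjusted p = 0.0019) and Pfkfb3, which makes an activator of glycolysis, by 0.36 (adjusted p = 0.044). The call of Pfkfb3 was lost in 16 of 21 settings (adjusted p = 0.095 with the slide as a fixed block). Ppp1r3c, a subunit that directs a phosphatase to glycogen, was the 1 member that fell. It was at -0.81, -0.83, -0.71 and -0.68 at 8 h, against 0.03, -0.06 and -0.14 at 4 h, a fall of 0.70 (SE 0.10, adjusted p = 0.000563).

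Of 34 genes that glucocorticoids induce, 7 rose at 8 h (0.671% of all genes rose) and none fell (0.352% of all genes fell), with no drug given in either group. The list's median difference was 0.33 against -0.03 over all genes, and 28 of the 34 had a positive difference, against 6608 of all 15350 genes (43%). Tsc22d3 and Per1 are also counted in the clock lists. The glucocorticoid-induced list, like the others, was chosen with earlier results of these data known, so its shares are a description.

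Fam107a, an actin-binding protein gene known to respond to glucocorticoids and the one with the glucocorticoid response element above, had the largest rise of all genes called. It was at 0.37, 0.44, 0.59 and 0.87 in KO lungs at 8 h, against -0.93, -1.13 and -0.83 at 4 h. The groups were far apart and the rise was 1.53 (2.89-fold, SE 0.15, adjusted p = 4.3e-06).

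Map3k6, a stress-activated kinase gene, was at 2.98, 2.91, 2.92 and 3.03 at 8 h, against 1.53, 2.02 and 2.03 at 4 h, and rose by 1.10 (2.14-fold, adjusted p = 4.9e-06). Tsc22d3, encoding the anti-inflammatory leucine zipper protein GILZ, was at 4.33, 4.49, 4.56 and 4.48 at 8 h, against 2.89, 3.61 and 3.72 at 4 h. It rose by 1.06 (2.08-fold, SE 0.16, adjusted p = 0.000728). In both genes the lowest of the 7 arrays was replicate 41 of the 4 h group. That array was also the lowest for Per1, Klf9, Cry1, Per2 and Klf13, but not for Fam107a or Gldc.

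Glul, glutamine synthetase, was at 3.56, 3.66, 3.71 and 3.82 at 8 h, against 3.24, 3.07 and 3.15 at 4 h, a rise of 0.54 (adjusted p = 0.0026). Angptl4, a secreted inhibitor of lipoprotein lipase, rose by 0.63 (adjusted p = 0.0251), and no arrays overlapped in either gene. The call of Angptl4 was lost in 10 of 21 settings (adjusted p = 0.092 with the slide as a fixed block). Klf9, a Krüppel-like factor gene and known receptor target, was at 2.93, 2.77, 2.44 and 2.56 at 8 h, against 1.68, 2.05 and 2.07 at 4 h, and rose by 0.74 (SE 0.13, adjusted p = 0.0051).

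Fkbp5, a receptor cochaperone gene strongly induced by glucocorticoids, had a difference of 1.60 but an SE of 0.48 and did not pass (adjusted p = 0.143). Cebpd, Lpin1 and Arrdc2 differed by 0.59, 0.50 and 0.67 and did not pass either.

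**Figure D2:**
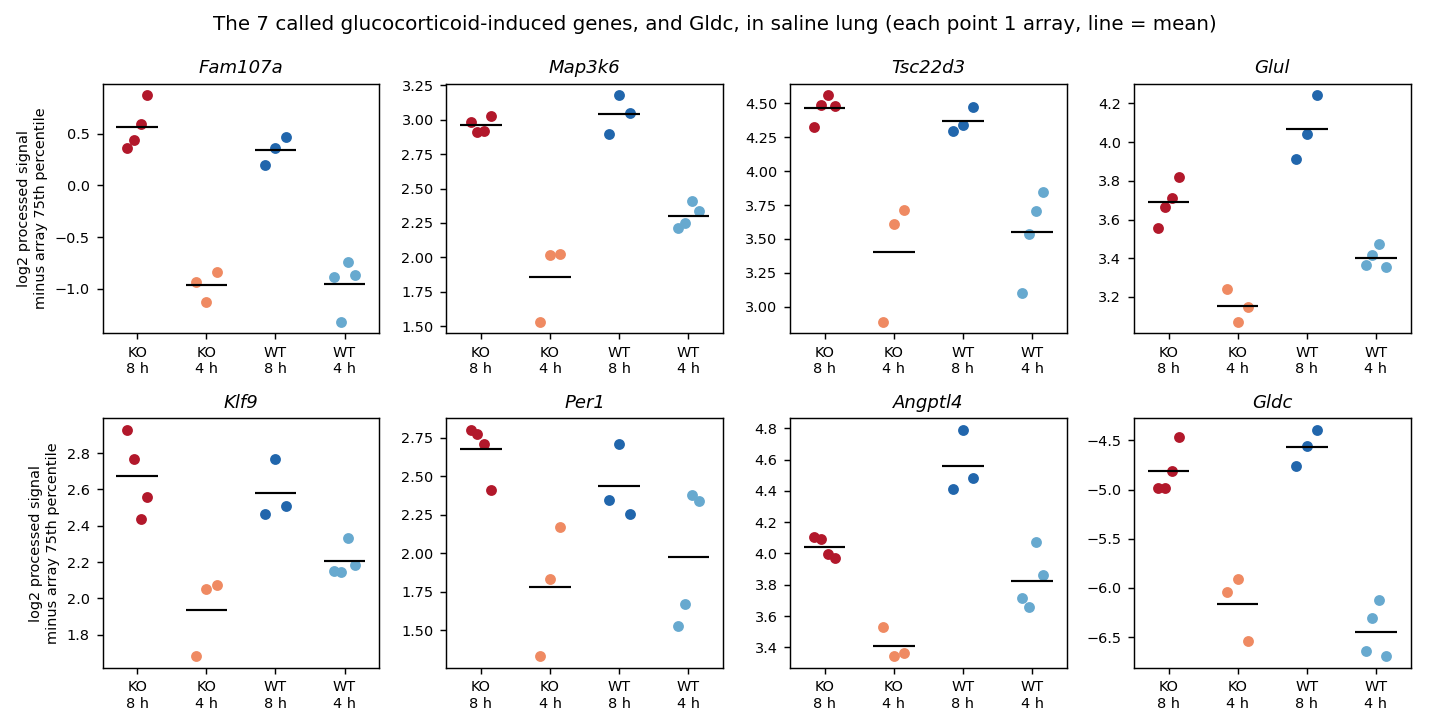
Log2 level relative to the array's 75th percentile (vertical axis, range set per gene) for the 7 called glucocorticoid-induced genes and Gldc, with 1 point per array and the group mean as a line, for KO and WT saline lung at 8 h and 4 h. In each gene all 4 KO arrays at 8 h lie above all 3 KO arrays at 4 h.

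Beyond Klf9, 2 other members of the Krüppel-like factor family rose, making 3 of 16 tested with none lower. Over all genes 0.671% rose and 0.352% fell. Klf13 was at 3.32, 3.17, 2.70 and 2.75 at 8 h, against 2.05, 2.21 and 2.20 at 4 h, and rose by 0.83 (SE 0.19, adjusted p = 0.0270). Klf6 rose by 0.31 (adjusted p = 0.0350, or 0.120 with the slide as a fixed block). It is also an immediate-early gene, and 2 of 25 such genes tested rose, against 0.671% of all genes. The other was Ccn2, which encodes connective tissue growth factor (0.63, SE 0.14, adjusted p = 0.0265). The calls of Klf13, Klf6 and Ccn2 were lost in 9, 15 and 11 of 21 settings.

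Amino acid breakdown, which KLF15 is known for, gave 2 rises and 1 fall among 35 genes, against 0.671% and 0.352% of all genes. Gldc, the decarboxylase of the glycine cleavage system, was at -4.98, -4.98, -4.81 and -4.47 at 8 h, against -6.04, -5.90 and -6.54 at 4 h. The groups were apart and it rose by 1.35 (2.55-fold, SE 0.22, adjusted p = 0.0019). Its call was lost in 2 of 21 settings, normexp background correction and the 7 arrays alone. Over the settings the difference lay between 0.70 and 1.79. The other rise was Glul. Cbs, which starts transsulfuration, was at -5.57, -5.75, -5.53 and -4.95 at 8 h, against -4.70, -4.27 and -5.02 at 4 h. It fell by 0.79 (adjusted p = 0.0461), its arrays overlapped, and the call was lost in 15 of 21 settings (adjusted p = 0.115 with the slide as a fixed block).

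Among other rises past 2-fold, Pcdh20, a protocadherin gene, was at -2.24, -2.01, -2.24 and -2.17 at 8 h, against -3.42, -3.38 and -3.34 at 4 h. It rose by 1.22 (2.32-fold, SE 0.14, adjusted p = 1.7e-05). The protease inhibitor gene Eppin rose by 1.04 (adjusted p = 0.0138) and Fst, encoding the activin antagonist follistatin, by 1.04 (adjusted p = 0.0364). These 2 calls were lost in 6 and 9 of 21 settings, that of Eppin also with the slide as a fixed block (adjusted p = 0.052). Smaller rises were those of Spsb1, an adaptor of a ubiquitin ligase (0.93, adjusted p = 0.0044), the transmembrane gene Tmc7 (0.91, adjusted p = 2.8e-05) and the death receptor gene Fas (0.72, adjusted p = 0.000266). The calls of Spsb1 and Tmc7 rest on the brightest probe and were lost with the mean of the probes or the dimmest. Other kept probes of Tmc7 differed by -0.32 and 0.09, and another of Spsb1 by 0.30. Fmo2, the flavin monooxygenase of lung, rose by 0.70 (adjusted p = 0.0062). It was the 1 call among 28 xenobiotic and redox genes, against 1.02% of all genes called.

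Of the falls, Spon2, which encodes the secreted matrix protein mindin, was the clearest. It was at -2.07, -2.07, -2.12 and -2.42 at 8 h, against 0.01, -0.30 and -0.04 at 4 h. No array came near the other group, and it fell by 2.06 (0.240 of its 4 h level, SE 0.20, adjusted p = 4.3e-06). Its call held in all 21 alternative settings.

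Adamts4, a protease that cleaves aggrecan and versican, was at -6.86, -7.21, -6.64 and -7.11 at 8 h, against -5.50, -3.96 and -4.95 at 4 h. It fell by 2.15 (SE 0.46, adjusted p = 0.0194) and was well above background on 3 of 4 arrays at 8 h. It was the 1 call among 30 matrix genes, against 1.02% of all genes called. Its adjusted p was 0.077 with the slide as a fixed block. Tex29, a gene known from testis, was measured above background on all 3 arrays at 4 h and on none at 8 h, and was at least 4.08-fold lower at 8 h. That bound sets the mean of the 4 h arrays against the dimmest signal well above background on each 8 h array, and the fit's adjusted p was 0.0273. The call was lost in 11 of 20 settings, among them the fixed slide block (adjusted p = 0.062), and when any 1 of the 7 arrays was left out.

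The neutrophil chemokine gene Cxcl3 passed the test (adjusted p = 0.0380), but it was well above background on 1 of 4 arrays at 8 h and 3 of 3 at 4 h, so its difference of -1.29 rests on dim signal. Over the settings that difference lay between -1.39 and -0.02, and 15 of 20 settings lost the call. Tnfsf9, the ligand of the T cell costimulator 4-1BB, fell by 0.95 (adjusted p = 0.0364, or 0.061 with the slide as a fixed block), and 12 of 21 settings lost the call. Hdc, which makes histamine, was at 2.59, 2.34, 2.79 and 2.47 at 8 h, against 3.22, 3.08 and 3.09 at 4 h, and fell by 0.58 (SE 0.11, adjusted p = 0.0055).

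Cxcl15, the lung chemokine lungkine, was at 4.11, 4.35, 4.51 and 4.12 at 8 h, against 4.89, 4.95 and 5.12 at 4 h. It fell by 0.71 (adjusted p = 0.0161) and was the 1 call in a list of 39 cytokine and chemokine genes that does not hold Cxcl3 or Tnfsf9. Of the 39, 5 had a positive difference, and the median was -0.34. Over all genes 1.02% were called, 43% had a positive difference and the median was -0.03. Some lists with no call leaned the same way: 2 of 30 interferon-stimulated, 3 of 19 unfolded protein response and 3 of 21 cholesterol synthesis genes were positive. Of 25 ribosomal protein genes 15 were positive. Abca3, the lipid transporter that loads surfactant into lamellar bodies, fell by 0.38 (adjusted p = 0.0348). With the slide as a fixed block the adjusted p was 0.062 for Cxcl15 and 0.132 for Abca3, and their calls were lost in 7 and 12 of 21 settings. Cxcl15 and Abca3 were the 2 calls among 11 markers of alveolar type 2 cells, against 0.352% of all genes called lower. The summed signal over the 6 markers with a value on every array ranged over 101 to 116 at 8 h and 114 to 123 at 4 h.

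Scd1, the stearoyl-CoA desaturase, was at 3.98, 3.77, 3.78 and 3.75 at 8 h, against 4.51, 4.39 and 4.49 at 4 h. It fell by 0.64 (adjusted p = 0.0186), the 1 call among 17 fatty acid synthesis genes, against 1.02% of all genes called. Sprr1a, a cornified envelope protein gene, fell by 1.01 (adjusted p = 0.0364), and Gstm7, a glutathione transferase gene, fell to 0.498 of its 4 h level (adjusted p = 0.0105, or 0.082 with the slide as a fixed block). Slco4a1, a transporter gene, fell by 0.95 (adjusted p = 0.0106), the lens crystallin gene Cryba4 by 0.92 (adjusted p = 0.0398) and the phosphatase inhibitor gene Ppp1r14d by 0.82 (adjusted p = 0.0261). Of 21 settings, 7 lost the call of Scd1, 9 that of Sprr1a, 8 that of Gstm7, 5 that of Slco4a1, 14 that of Cryba4 and 8 that of Ppp1r14d.

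Many programmes gave no call by limma in this comparison. None of 20 heat shock, 19 unfolded protein response, 21 cholesterol synthesis, 30 interferon-stimulated, 30 proliferation, 25 ribosomal protein or 25 respiratory chain genes passed. Over all genes 1.02% were called, and at that share lists of this size hold few or no calls. Their median differences lay between -0.21 for the interferon-stimulated and 0.03 for the ribosomal protein genes. With 4 arrays against 3, a missed threshold does not show that these genes were equal.

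The same genes were next read in WT saline lung at 8 h against 4 h. The group means of the WT and KO comparisons share no array. Their p-values come from the same fit over all arrays and share its variance estimate, so the overlap of calls is not that of independent tests. In WT saline lung 223 genes (1.45%) were called, 159 higher (1.04%) and 64 lower (0.417%). Of the 103 KO rises, 100 (97.1%) were also higher at 8 h in WT, against 46.9% of the 6608 genes with a positive KO difference, and 52 were called higher in WT. These 52 are 50.5% of the KO rises and 32.7% of the WT rises. Of the 54 KO falls, 47 (87%) were lower in WT, against 45.7% of the 8742 genes with a negative KO difference. In all, 16 were called lower in WT, which is 29.6% of the KO falls and 25% of the WT falls.

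The clock genes took the same direction in WT. Per2 rose by 1.08 and Cry1 by 0.86 in WT, with adjusted p of 7.5e-05 and 0.00055, and Rora rose by 0.37 (adjusted p = 0.026). Arntl fell by 0.79 (adjusted p = 0.014) and Nr1d1 by 1.25 (adjusted p = 0.0068). Per1 and Cry2, called in KO, differed by 0.46 and 0.31 in WT and did not pass.

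Fam107a rose by 1.29 in WT (adjusted p = 6.7e-05), Gldc by 1.87 (adjusted p = 6.7e-05), and Spon2 fell by 1.86 (adjusted p = 4.1e-05). Klf9 and Klf13 differed by 0.38 and 0.24 in WT and did not pass there. Adamts4 lay at -5.76, -5.81 and -5.22 in WT at 8 h, against -5.09 to -6.64 at 4 h, a difference of 0.36 (adjusted p = 0.701).

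Testing the difference between genotypes directly gave 1 gene of 15350 (0.00651%), with 1924 at an unadjusted p under 0.05. It was Map3k13, a kinase gene of the stress pathway through JNK. In KO it was at -5.04, -5.07, -4.86 and -5.09 at 8 h, against -4.47, -4.55 and -4.72 at 4 h, and in WT at -4.61, -4.59 and -4.44 at 8 h, against -4.94, -4.68, -5.13 and -5.14 at 4 h. It fell by 0.43 in KO (adjusted p = 0.0265, lost in 13 of 21 settings). Over the settings the KO difference lay between -0.50 and -0.003. In WT it rose by 0.42, a difference between genotypes of -0.85 (SE 0.13, adjusted p = 0.030). Under quantile normalization, with the slide as a fixed block and in the deposited table, this test called no gene. For Klf9, Klf13 and Adamts4 the difference between genotypes had adjusted p of 0.415, 0.388 and 0.297, so a call in KO alone does not show that the genotypes differ.

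Over all genes the KO and WT time differences ran opposite ways, with r = -0.42 as a description across genes, which are no independent replicates. That value moved to -0.07 under quantile normalization, -0.01 with the slide as a fixed block, 0.05 in the deposited table and 0.16 with normexp background correction. Among called genes 93.6% shared the sign, and this share lay between 91.4 and 100% in 13 of 14 alternative settings, the exception being array weights (1655 calls, 59.7%).

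**Figure D3:**
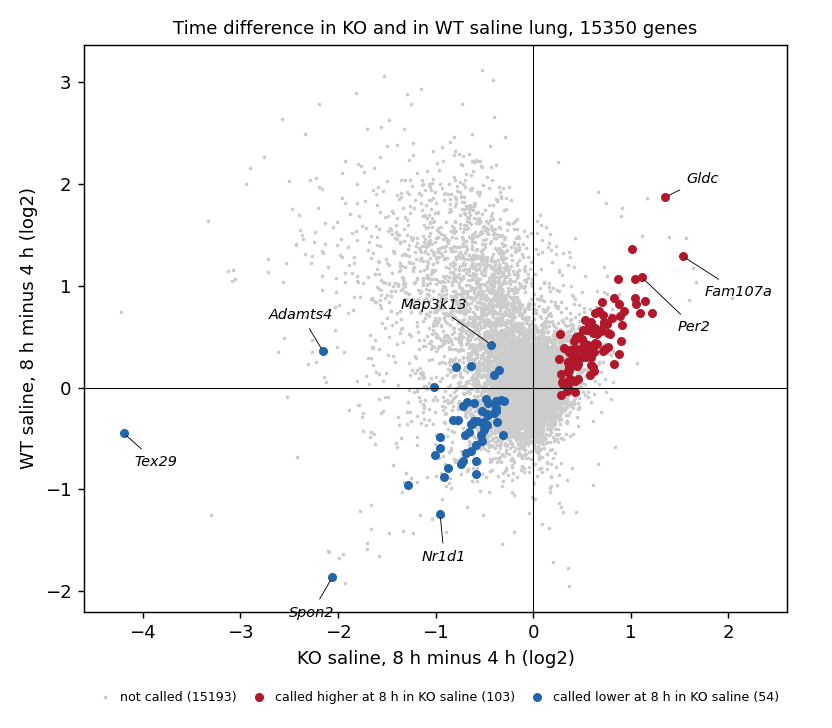
Difference 8 h minus 4 h on the log2 scale in KO saline lung (horizontal) and WT saline lung (vertical), 1 point per gene, with the 103 rises and 54 falls called in KO coloured and all other genes grey. Of the coloured genes 147 lie in the quadrants of equal sign, while the grey cloud leans to the upper left.

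In KO lungs given dexamethasone, 8 h against 4 h, 1103 genes (7.19%) were called, 3.5% of all genes higher and 3.68% lower, and 13 of the 103 saline rises and 18 of the 54 saline falls were called the same way. The rises split in sign, with 54 of 103 (52.4%) positive under dexamethasone, against 58.8% of all genes with a positive KO saline difference. The test of saline minus dexamethasone time differences called 466 genes (3.04%), 259 higher (1.69%) and 207 lower (1.35%). Fam107a differed by -0.28 under dexamethasone and by 1.53 under saline, a difference of 1.81 (SE 0.21, adjusted p = 2.9e-05). Of the glucocorticoid-induced list, 8 of 34 were called higher in that test and none lower.

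Of 17 core clock genes, 1 was called higher and 1 lower in that test, against 1.69% and 1.35% of all genes. Over time under dexamethasone alone, Cry1 rose too, by 0.75 (adjusted p = 0.00015), and Nr1d1 fell by 1.19 (adjusted p = 0.00091). For Cry1 the difference from the saline change was 0.39 and did not pass (adjusted p = 0.295). Arntl differed by 0.03 under dexamethasone, and its difference from the saline change was -0.90 (adjusted p = 0.025). Per1 differed by -0.14 under dexamethasone, with a difference from the saline change of 1.04 (adjusted p = 0.028).

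Most genes called over time in KO saline lung were also called, in the same direction, with dexamethasone in WT, 120 of 157. In WT lungs at 4 h, dexamethasone against saline called 5645 genes (36.8%), 2328 higher (15.2%) and 3317 lower (21.6%). The group means compared share no array with the KO saline comparison. The p-values again come from the same fit over all arrays, so this overlap of calls is not that of independent tests either. Of the 103 rises, 89 (86.4%) were called higher with dexamethasone and 4 lower. Of the 54 falls, 31 (57.4%) were called lower and 6 higher. These are 3.82% of the genes dexamethasone raised and 0.935% of those it lowered. Fam107a rose by 4.17, Gldc by 3.84, Eppin by 3.14 and Pcdh20 by 2.74 with dexamethasone, and Spon2 fell by 2.35.

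The rest of the saline time change stood apart from this: 10 of the 157 genes (6.37%) were called the opposite way with dexamethasone, and the others were not called. Examples follow. Arntl fell with time in KO saline lung and rose by 0.45 with dexamethasone in WT (adjusted p = 0.022). Mthfd1l rose with time and fell by 0.45 with dexamethasone (adjusted p = 0.0027). Adamts4 and Sprr1a, both lower at 8 h, differed by -0.15 and -0.07 with dexamethasone and did not pass.

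**Figure D4:**
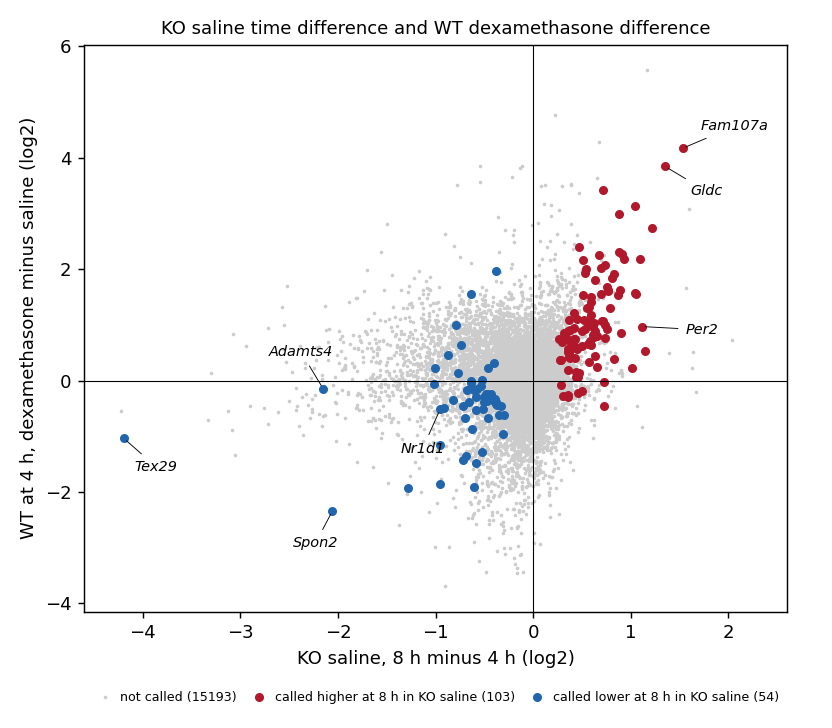
Difference 8 h minus 4 h in KO saline lung (horizontal) against dexamethasone minus saline in WT lung at 4 h (vertical), both log2, 1 point per gene, coloured as called in the KO comparison. Of the 103 coloured rises 95 lie above 0 on the vertical axis, and of the 54 coloured falls 44 lie below it.

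Array quality and tissue mixture were read beside these results. The scaling value of an array, its 75th percentile, was 2778 ± 246 at 8 h and 3033 ± 224 at 4 h (SD, n = 4 and 3, exact two-sided permutation p = 0.257), and 80.6 ± 2.7% and 84.1 ± 2.7% of spots were well above background (exact permutation p = 0.143). For 2465 genes with probes of unlike brightness, the log2 gap between the bright and the dim one, averaged over genes and centred over the 29 arrays, was -0.17 ± 0.04 at 8 h and -0.28 ± 0.08 at 4 h. That difference of 0.11 had an exact permutation p of 0.0286, the smallest that 35 splits allow. In WT saline lung the mean gap moved the other way, from 0.07 at 4 h to -0.0007 at 8 h. It lay between -0.37 and -0.12 on the KO saline arrays and between -0.04 and 0.17 on the WT saline arrays. The part of this brightness shift in the gene differences was not tested beyond the scalings reported here. Its part in the opposite run of KO and WT over all genes was not tested either. The 2 groups shared 1 slide, which held replicate 47 at 8 h and replicate 43 at 4 h. A fit that left this slide out called 94 genes, and 86 of them (91.5%) moved the same way between its 2 arrays, against 55.5% of all genes.

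Markers of other tissues differed between lungs. All 15 heart muscle genes were tested and none was called (median difference -1.06), with 12 of 15 above background on all 7 arrays. Their summed signal, in units of the array's 75th percentile over the 14 with a value on every array, was 42.4, 10.3, 27.6 and 36.7 at 8 h, against 76.8, 26.3 and 45.2 at 4 h, so the groups overlapped. For 11 adipocyte genes (none called, median -0.96, 10 above background on all 7 arrays) the sums were 9.86, 9.47, 8.87 and 10.3 at 8 h, against 25.1, 11.6 and 12.7 at 4 h, with no overlap. Replicate 41 of the 4 h group was highest for both lists.

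Skeletal muscle genes, 14 with none called, summed to 2.05 to 2.98 at 8 h and 3.06 to 4.35 at 4 h. Of 11 mast cell and eosinophil genes Hdc was the 1 call, against 1.02% of all genes called. The 11 summed to 6.15 to 7.39 at 8 h and 9.08 to 9.92 at 4 h, but Hdc gave 81.6 to 93.9% of that sum. Without Hdc the sums were 0.50 to 1.24 at 8 h and 0.584 to 0.952 at 4 h, so the groups overlapped, a sum chosen after seeing the data. Platelet genes summed to 13.3 to 25.9 at 8 h and 12.8 to 14.6 at 4 h, and neutrophil genes to 24.6 to 56.4 and 21.0 to 56.3. No T cell, B cell, NK cell, alveolar macrophage, endothelial or alveolar type 1 marker was called, against 1.02% of all genes. At that share lists of this size hold few or no calls. A positive difference was found in 19 of 21 T cell, 14 of 17 endothelial and 5 of 10 alveolar type 1 markers. It was found in 5 of 17 B cell, 2 of 14 NK cell and 6 of 14 alveolar macrophage markers, against 43% of all genes. The part of tissue mixture in the gene differences was not tested. Without replicate 41, all 157 genes kept their sign and 52 were called, of which 50 are among the 157.

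**Figure D5:**
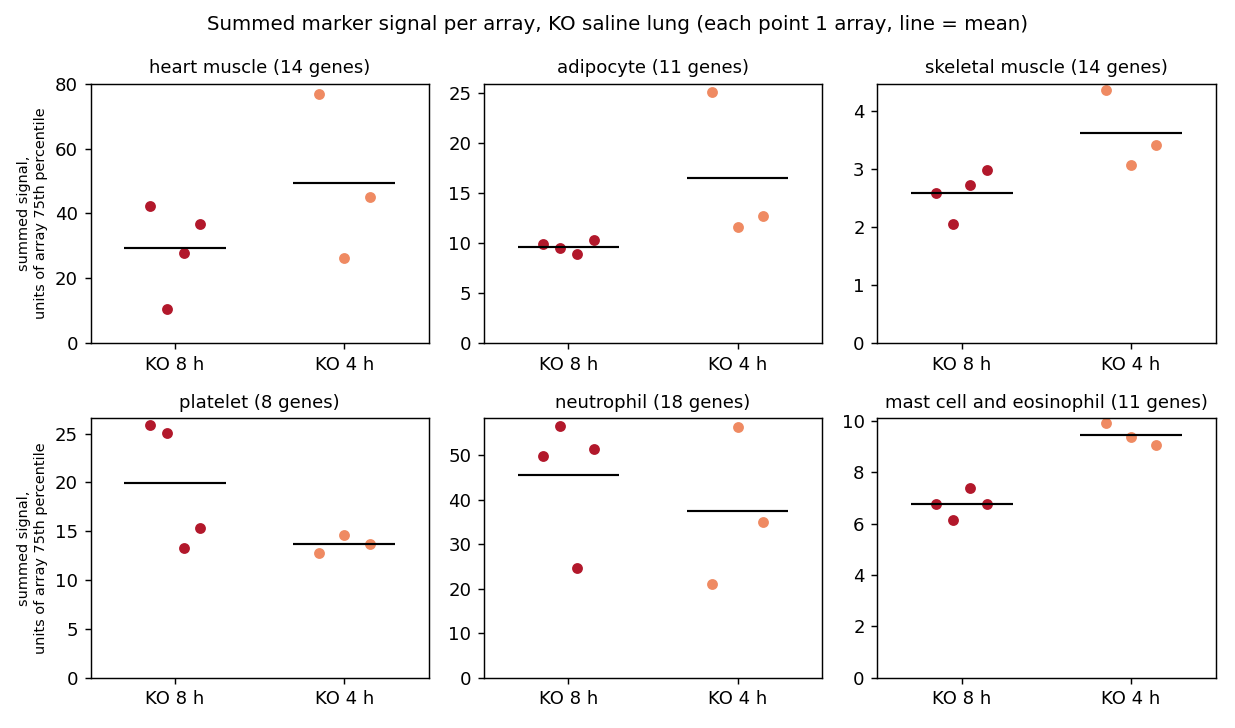
Summed signal of marker genes in units of the array's 75th percentile (vertical axis from 0) in KO saline lung at 8 h (4 arrays) and 4 h (3 arrays), 1 point per array with the mean as a line. Adipocyte and skeletal muscle sums are lower on every 8 h array, and the heart muscle, platelet and neutrophil sums overlap. The mast cell and eosinophil sum is mostly Hdc, and without it the groups overlap.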

How the data were processed

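Lung RNA was labelled with Cy3 and hybridised to single-colour Agilent 4x44K mouse arrays, as the labels' protocols state. Per the file headers, the deposited intensity of each spot is a processed signal of Feature Extraction 10.7.3.1 (10.6 in the submitters' processing notes), with the background subtracted and no normalization between arrays. The deposited series table of log2 values, of unknown method and centring, follows the spots' median signal (Spearman 0.999994 to 0.999999) with column medians of 8.28 to 8.30, and served only as an alternative.

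Control and outlier spots were left out, spots of a probe averaged, and log2 of the processed signal reduced by each array's 75th percentile. Of 41174 probes, 24844 matched 1 gene of RefSeq GRCm38.p6 and 16330 none. A probe was kept if 3 arrays of any group showed it well above background (33931 probes), and the brightest kept probe stood for its gene (15350 genes, 432 of them with a missing value). One limma 3.58.1 fit (R 4.3.3) over all 29 arrays with 8 group means gave the contrasts, with Benjamini-Hochberg adjustment over all genes and calls at 0.05. The fit was tested on simulated data. Array summaries were compared by exact two-sided permutation, for which 35 splits allow a smallest p of 0.0286. The number of arrays limits the precision.

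All 8 slides, with 2 to 4 arrays each, were scanned on 1 day. Arrays of each KO saline group correlated with r = 0.980 to 0.991, and no 2 arrays were identical. Genes named are Klf15 and Nr3c1, the 12 largest rises and falls among called genes with a proper symbol whose arrays do not overlap, all clock list members, up to 4 members per other list with the lowest p and the 8 lowest p of each difference test. Further members, and the promoters of glucocorticoid-induced genes, were added after values were seen, as was the WT dexamethasone comparison at 4 h. A few genes that these rules name are not reported here. In these lists 3 older symbols were replaced by the current RefSeq ones. The groups compared and the 40 gene lists were chosen with earlier results of these data known. Alternatives changed the scaling, background correction, probe filter, probe choice, variance model, array weights, slide and arrays used.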

Additional observations from a re-analysis of the deposited data

Results flagged for a closer look

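In the 4 KO saline arrays at 8 h, 1 array stood outside the range of the others by Dixon's test for 16 of 215 genes examined, where chance alone flags about 1 in 20. Replicate 47 was low for the granule genes Ngp (-4.26, others -0.32 to 0.22) and Camp (-3.93, others -0.39 to 0.20), for the eosinophil granule gene Prg2 (-5.07, others -1.28 to -0.59), and for Rora (0.94), Csnk1e (2.92), Tcf7 (-0.80) and Sox17 (1.69). It was high for Tmod1 (1.06). Replicate 48 was low for Spon2 (-2.42) and Aqp5 (4.84), and high for Nampt (2.26), Cfd (0.90) and Tpsb2 (-6.25). Replicate 46 was low for Per2 (1.06) and Muc5ac (-3.95), and replicate 45 was high for Scd1 (3.98). Of these genes Per2, Spon2, Rora and Scd1 were called between 8 h and 4 h.

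Time differences that passed a test of the difference itself were flagged too. For KO minus WT saline this was Map3k13 (-0.85). For KO saline minus KO dexamethasone the 8 lowest p-values belonged to Fat3 (1.98), Fam107a (1.81), Mcf2l (1.19), Fam117b (1.16), Fas (1.14), Rab11fip1 (-0.94), Fzd2 (-1.37) and Sh3rf2 (-1.49), all on the log2 scale. Fat3, Fzd2 and Sh3rf2 were not called over time in KO saline lung (-0.16, -0.26 and -0.37), and under dexamethasone they differed by -2.15, 1.11 and 1.13.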

How the results depend on the processing

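No paired analysis was possible because no replicate number is shared between the groups. The 157 calls in KO saline lung became 81 with median scaling (70 higher), 42 with normexp (32 higher), 78 with the dimmest probe, 1655 with array weights, 302 with the slide as a random block and 4 with the 7 arrays alone (among them Pcdh20 higher, Spon2 and Tex29 lower). Quantile normalization gave 142 calls, 114 of them higher, against 103 of 157. With the slide as a fixed block 153 were called, 93 of them among the 157. All 157 kept their sign in these settings, except 1 with the dimmest probe and 2 without a value under normexp. Leaving out 1 array at a time gave 52 (without replicate 41) to 154 calls. Counts also fell by more than 1.5 times without replicates 43 (102), 44 (82), 45 (87), 46 (73) and 48 (93).

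The 223 WT saline calls became 100 (median scaling), 41 (normexp), 1959 (array weights), 0 (7 arrays alone), 506 (random slide block), 121 (share of spots above background as a covariate) and 136 (deposited table), and 47 to 306 with 1 array left out. The 1 gene that differed between genotypes became 0 with quantile normalization, median scaling, normexp, trend and robust variance, fixed slide block, covariate and deposited table, 1946 with array weights, 5 with the groups alone and 0 to 2 with 1 array left out. The 466 genes that differed between saline and dexamethasone became 206 (median scaling), 108 (normexp), 1153 (array weights), 301 (groups alone) and 912 (random slide block), and 284 to 487 with 1 array left out. The cause of these moves was not tested. Signal over background limits Tex29 and Cxcl3, which were dim at 8 h.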

Other observations

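Calls outside the gene lists, chosen after their values were seen, these 7 single genes, which are no tested group. At 8 h in KO saline lung Slco2a1, a prostaglandin uptake carrier, rose by 0.36 and Hpgd, an enzyme that inactivates prostaglandins, by 0.37. The cyclin-dependent kinase inhibitor gene Cdkn1c rose by 0.64, the survival gene Bcl2l1 by 0.68 and Trp53inp1, a p53 target, by 0.47. The connexin gene Gjb2 fell by 0.68, and the interleukin 18 receptor gene Il18r1 fell by 0.54. All 7 are among the 157 genes with an adjusted p under 0.05 in limma.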
